A study of Mus musculus with 5 samples.

Results

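Nuclear receptors are transcription factors whose activity is set, in most of the family, by a small lipophilic ligand such as a steroid, thyroid hormone, retinoic acid, vitamin D, an oxysterol or a fatty acid. The receptors described here are 39 genes, from a list of 41 nuclear hormone receptors of the mouse, out of 12394 genes measured. They were chosen by name. Each gene was represented by the probe set that was annotated to that gene alone and had the highest mean signal over all arrays. Nr3c2 (mineralocorticoid receptor) and Nr1h2 (liver X receptor beta) were not analysed here, because no probe set was annotated to either gene alone. Expression was measured on Affymetrix arrays in ID8 cells, an established line derived from mouse ovarian surface epithelium, which grows as tumours in the peritoneum. The FBS group was 3 arrays of parental ID8 cells kept in DMEM plus 10% fetal bovine serum, or FBS (replicates 1, 2 and 3). The ascites group was 2 arrays of ID8 cells kept in DMEM plus 10% ascites fluid, drawn from mice with ID8 tumours, with 7 days of culture per the series design (replicates 2 and 3). The labels do not say whether the ascites was pooled or cleared of host cells, whether the ascites medium also held serum, or whether replicates were separate cultures, so p values reflect the spread among these 5 arrays alone, and that spread may be technical.

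Most receptors of this superfamily share a zinc-finger domain that binds DNA and a carboxy-terminal domain that binds the ligand. The steroid receptors bind DNA mostly as homodimers, whereas the thyroid hormone, retinoic acid, vitamin D, peroxisome proliferator-activated (PPAR) and liver X (LXR) receptors pair with a retinoid X receptor (RXR). Coactivators and corepressors, recruited according to the ligand, then set the activity of the target gene. Orphan members, among them the COUP-TF and NR4A receptors, act mainly according to how much of them a cell makes, and the ovary is a classical target tissue of oestrogen and progesterone.

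Of the FBS arrays, replicate 3 differed most from the rest. Between FBS replicates 1 and 2 the values differed by an SD of 0.117 over genes and 0.125 over the receptors, and FBS replicate 3 differed from them by 0.371 and 0.376 over the receptors, compared with 0.436 and 0.527 between FBS replicate 3 and the ascites arrays. Of 14 measured ovarian surface and mesothelial markers, 12 in FBS and 11 in ascites lay above the dim reference. This reference is the signal of genes typical of other tissues and is defined with the receptor levels. Among the markers above it were Krt8, Krt18, Wt1 and Upk3b, while Epcam and Cdh1 were not. Of the 14, 3 fell in ascites (Krt18, Krt19 and Vim), against 2.59% of all genes, and 9 had an unadjusted p under 0.05, against 24.3% of all genes. Lower without overlap were 10, among them Bnc1 (difference -3.19), against 19.4% of all genes. Without FBS replicate 3, 9 fell, against 10.9% of all genes. The mean log2 level of this marker list was 11.37, 11.37 and 10.60 in FBS replicates 1, 2 and 3, and 10.21 and 9.94 in ascites replicates 2 and 3. Of 15 leukocyte markers, Cd14 lay above the reference in both groups and Cd68 in ascites only (6.22 in FBS and 6.74 in ascites), the common leukocyte antigen gene Ptprc read 3.43 and 3.40, and 0 of 7 endothelial, 0 of 4 erythroid and 0 of 4 adipocyte markers lay above it. Of 6 fibroblast markers, Dcn lay above it in both groups and Col1a1 and Col3a1 in FBS only. The mean level of the fibroblast list was 7.39, 7.40 and 6.69 in FBS and 6.53 and 6.30 in ascites, and Col1a1, Col3a1, Pdgfra and Dcn fell without FBS replicate 3. With all 5 arrays, no gene of these other marker lists passed the test described with the receptor changes, with 1 leukocyte, 1 endothelial and 2 fibroblast markers at an unadjusted p under 0.05. In bulk RNA, fewer cells of a type and less RNA per cell cannot be told apart.

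Of the 39 receptors, 21 in FBS and 23 in ascites had a mean signal above the dim reference, and 16 were at or under it in both groups. The dim reference was the 90th percentile of 46 genes typical of neurons, retina, liver, muscle, pancreas, testis and pituitary, which was 6.64 in FBS and 6.59 in ascites (log2 signal). The deposited values carry no detection call, so this is a rough floor. The means of the 46 genes ran from 2.92 to 9.46 in FBS and from 2.99 to 8.62 in ascites. One of them, Mbp, fell without FBS replicate 3, so some of these genes may be expressed in these cells. Signals of different probe sets are not on a common scale and are not ranked against each other. Above the reference in both groups were the glucocorticoid receptor Nr3c1, the oestrogen-related receptor Esrra, the thyroid hormone receptor Thra, the vitamin D receptor Vdr, all 3 retinoic acid receptors (Rara, Rarb and Rarg), the partners Rxra and Rxrb, the bile acid receptor Nr1h4, the clock repressors Nr1d1 and Nr1d2, Nr2c1, Nr2c2, Nr2f2, Nr2f6, Nr4a1, Nr4a3, Nr5a1, Nr5a2 and Nr0b2. Pparg and Nr4a2 passed it in ascites only. These statements hold for the chosen probe sets. A further, dimmer probe set lay under the reference in both groups for Rarg, Nr1d2, Nr2c1, Nr2c2, Nr4a3, Nr5a1 and Nr5a2. The share above the reference was 53.8% of the receptors and 62.5% of all genes in FBS, and 59% and 62.6% in ascites.

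**Figure D1:**
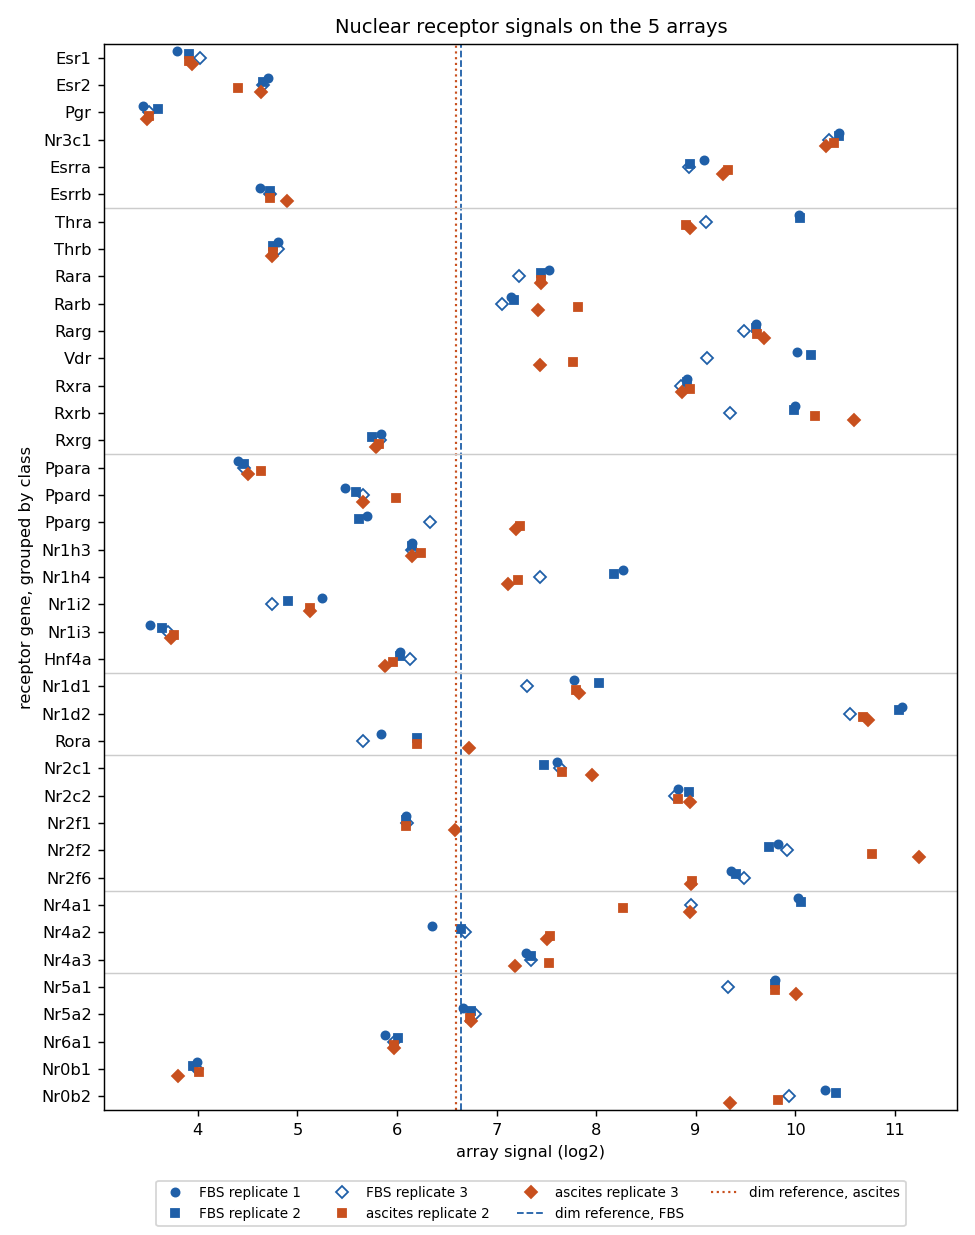
Log2 array signal (x axis) of 39 receptor genes (y axis, grouped by class), 1 point per array, blue for FBS (n = 3) and orange for ascites (n = 2), with dashed and dotted lines at the dim reference of each group (6.64 and 6.59). The receptors for oestrogen and progesterone (Esr1, Esr2 and Pgr) lie left of the lines on all 5 arrays, and FBS replicate 3 (open diamond) lies apart from the other FBS arrays for Vdr, Thra, Nr1h4 and Nr4a1.

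The sex steroid receptors were not shown to lie above background. The oestrogen receptor alpha gene Esr1 read 3.79, 3.91 and 4.02 in FBS and 3.91 and 3.94 in ascites. The progesterone receptor gene Pgr read 3.45 to 3.60 in FBS and 3.51 and 3.49 in ascites, and the oestrogen receptor beta gene Esr2 4.65 to 4.70 and 4.40 and 4.63. Each of these genes had 1 probe set, so a transcript that the probe set misses would not be seen. Other receptors at or under the reference in both groups were Esrrb, Thrb, Rxrg, Ppara, Ppard, Nr1h3 (liver X receptor alpha), the xenobiotic receptors Nr1i2 and Nr1i3, the hepatocyte factor Hnf4a, Rora, Nr2f1, the germ cell factor Nr6a1 and the adrenal and gonadal repressor Nr0b1. Of 7 further receptors outside the list, 3 were measured (Rorb, Esrrg and Hnf4g), all 3 were under the reference in both groups, and 0 passed the test.

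In ascites, Nr2f2 and Nr4a2 rose and Nr2f6 fell, and the other 36 receptors did not pass the test. These 3 genes are 7.69% of the 39 receptors, against 5.28% of all genes (adjusted p under 0.05, limma, Benjamini-Hochberg over all 12394 genes); by direction, 2 rose, against 2.69% of all genes, and 1 fell, against 2.59%. At an unadjusted p under 0.05 there were 9 receptors, against 24.3% of all genes. The groups' arrays did not overlap for 18 receptors (46.2%), 10 higher and 8 lower in ascites, against 38% of all genes (18.6% higher and 19.4% lower). A difference of at least 1 on the log2 scale was found for 4 receptors (Vdr, Pparg, Nr2f2 and Nr4a1), against 5.56% of all genes, and the arrays of all 4 did not overlap, against 5.37%. The median difference, ascites minus FBS, was 0.03 on the log2 scale over the receptors and 0.00 over all genes. The calls depended on the arrays used. With limma, 0 receptors and 0 genes passed without FBS replicate 1, without FBS replicate 2, without ascites replicate 2 or without ascites replicate 3, where 7 to 11 receptors and 2017 to 2748 genes had an unadjusted p under 0.05. Without FBS replicate 3, 8 receptors passed, against 20.1% of all genes; 3 were higher (9.17% of all genes) and 5 lower (10.9%). The exact two-sided permutation test cannot go below 0.1 with 3 against 2 arrays. That value was reached by 12 receptors, Nr2f2, Nr2f6 and Nr4a2 and 9 that did not pass limma's test. Among these 9, Esr2, Ppara and Hnf4a were under the dim reference in both groups. The share of all genes at that value was not computed, so the count is no result about the receptors.

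**Figure D2:**
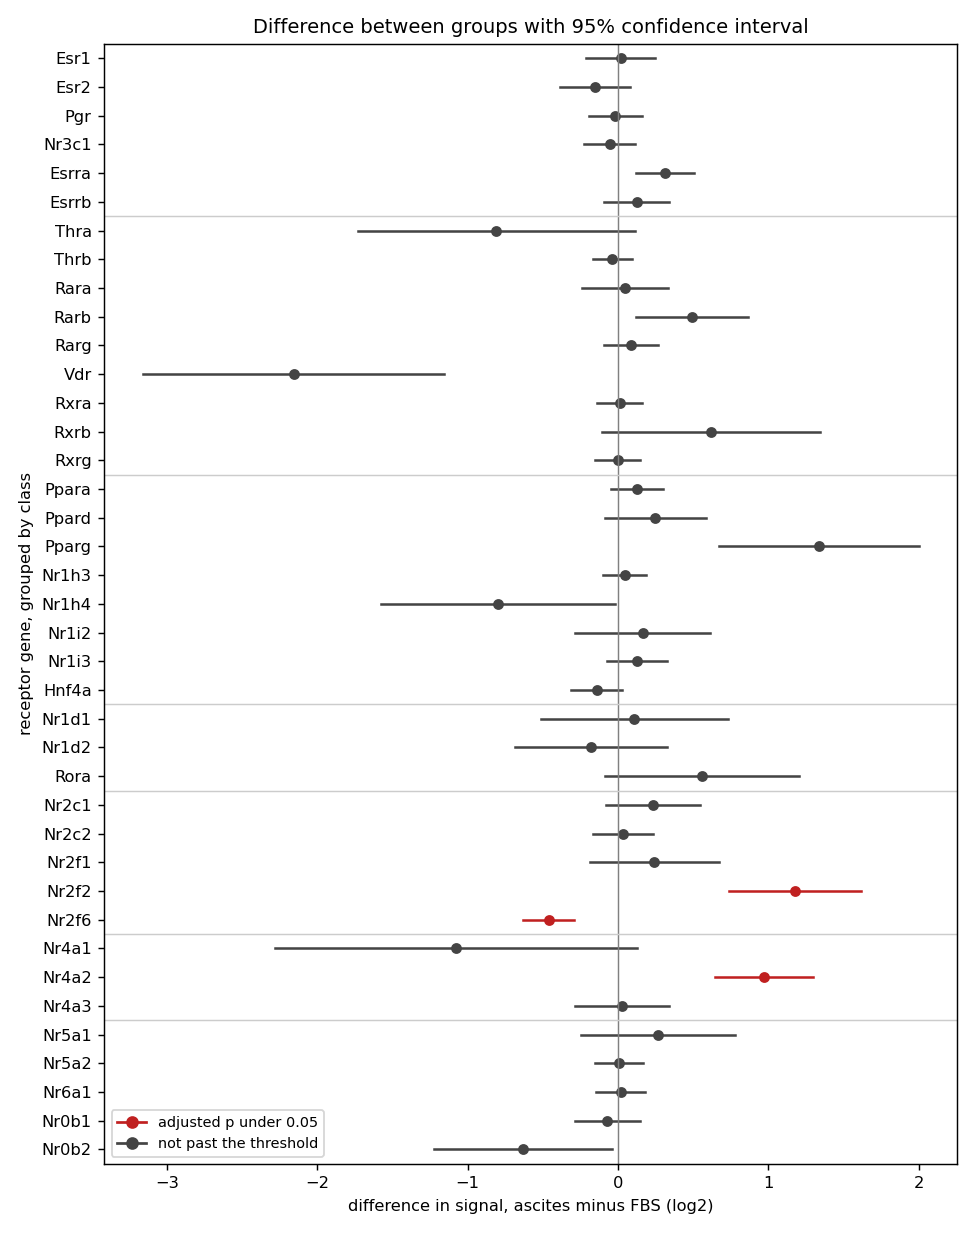
Difference in log2 signal, ascites minus FBS (x axis), with its 95% confidence interval from limma (not adjusted for the number of genes), for 39 receptors (y axis, grouped by class). Nr2f2, Nr4a2 and Nr2f6 (red) passed the adjusted threshold, while Vdr and Pparg had differences of -2.16 and 1.34 with wider intervals and did not.

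Nr2f2 encodes COUP-TFII, an orphan receptor of mesenchyme, venous endothelium and the reproductive tract. Its signal was 9.83, 9.74 and 9.92 in FBS and 10.77 and 11.24 in ascites. Both ascites arrays lay above all FBS arrays, and FBS replicate 3 lay close to the other FBS arrays. The difference was 1.18 (SE 0.16, 2.26-fold, 95% confidence interval 1.67-fold to 3.06-fold, adjusted p = 0.0393). All 3 probe sets of Nr2f2 were higher in ascites, the others by 1.02 (SE 0.083) and 1.33 (SE 0.31). The last of these was under the dim reference in FBS (5.93). The call was lost without any array other than FBS replicate 3 (differences of 0.94 to 1.41, adjusted p 0.0891 to 0.201), and held without FBS replicate 3 (1.22, adjusted p = 0.0394). Its close relative Nr2f1, COUP-TFI, was at 6.09 to 6.10 in FBS and 6.09 and 6.58 in ascites, under the reference in both group means.

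Nr2f6, a further COUP-TF-related receptor that represses transcription, read 9.35, 9.41 and 9.49 in FBS and 8.96 and 8.95 in ascites. The arrays did not overlap, and the groups' spreads were small (SD 0.070 and 0.0071). It fell 1.38-fold (log2 difference -0.46, SE 0.063, adjusted p = 0.0383). Its other probe set read 8.10 to 8.18 in FBS and 7.89 and 8.14 in ascites, which overlap, with a difference of -0.14 (SE 0.094). With the mean of both probe sets the difference was -0.30 (adjusted p = 0.0657), it was -0.45 (adjusted p = 0.0544) with arrays centred on their medians, and its adjusted p was 0.0635 with a trended, robust prior. Leaving out any array other than FBS replicate 3 also ended the call (differences of -0.46 to -0.50, adjusted p 0.125 to 0.191), while without FBS replicate 3 the difference was -0.43 (adjusted p = 0.0181). The testicular receptors Nr2c1 and Nr2c2, repressors of the same subfamily, did not pass, with differences of 0.23 (95% confidence interval -0.08 to 0.55) and 0.03 (-0.17 to 0.23).

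Nr4a2, like Nr4a1 and Nr4a3 an immediate early gene for an orphan receptor, read 6.35, 6.64 and 6.68 in FBS and 7.54 and 7.51 in ascites. The ascites arrays lay above all FBS arrays. The FBS mean (6.56) was not above the dim reference, so the size of the change in expression is not known. The difference in signal was 0.97 (SE 0.12, adjusted p = 0.0337). The other probe set of Nr4a2 did not separate the groups, at 6.31 to 6.40 in FBS and 6.42 and 6.38 in ascites (difference 0.04, SE 0.055), and it too lay under the reference. Nr4a2 overlaps another gene in the RefSeq annotation, and which of them each probe set reads was not tested. The call was lost without any array other than FBS replicate 3 (differences of 0.86 to 1.01, adjusted p 0.139 to 0.177), and held without FBS replicate 3 (1.03, adjusted p = 0.0241).

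Nr4a1, the best known member of the same subfamily, had lower signals in ascites. It read 10.03, 10.06 and 8.95 in FBS and 8.27 and 8.94 in ascites. FBS replicate 3 and ascites replicate 3 differed by only 0.01, so the groups barely separated, and the difference (-1.08, SE 0.45, adjusted p = 0.247) did not pass. The value was -1.44 without FBS replicate 3 (adjusted p = 0.0527). Nr4a3 stayed between 7.19 and 7.53 on all 5 arrays (difference 0.03, 95% confidence interval -0.29 to 0.34). Its other probe set lay under the dim reference, at 4.14 to 4.44 in FBS and 4.29 and 3.94 in ascites.

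**Figure D3:**
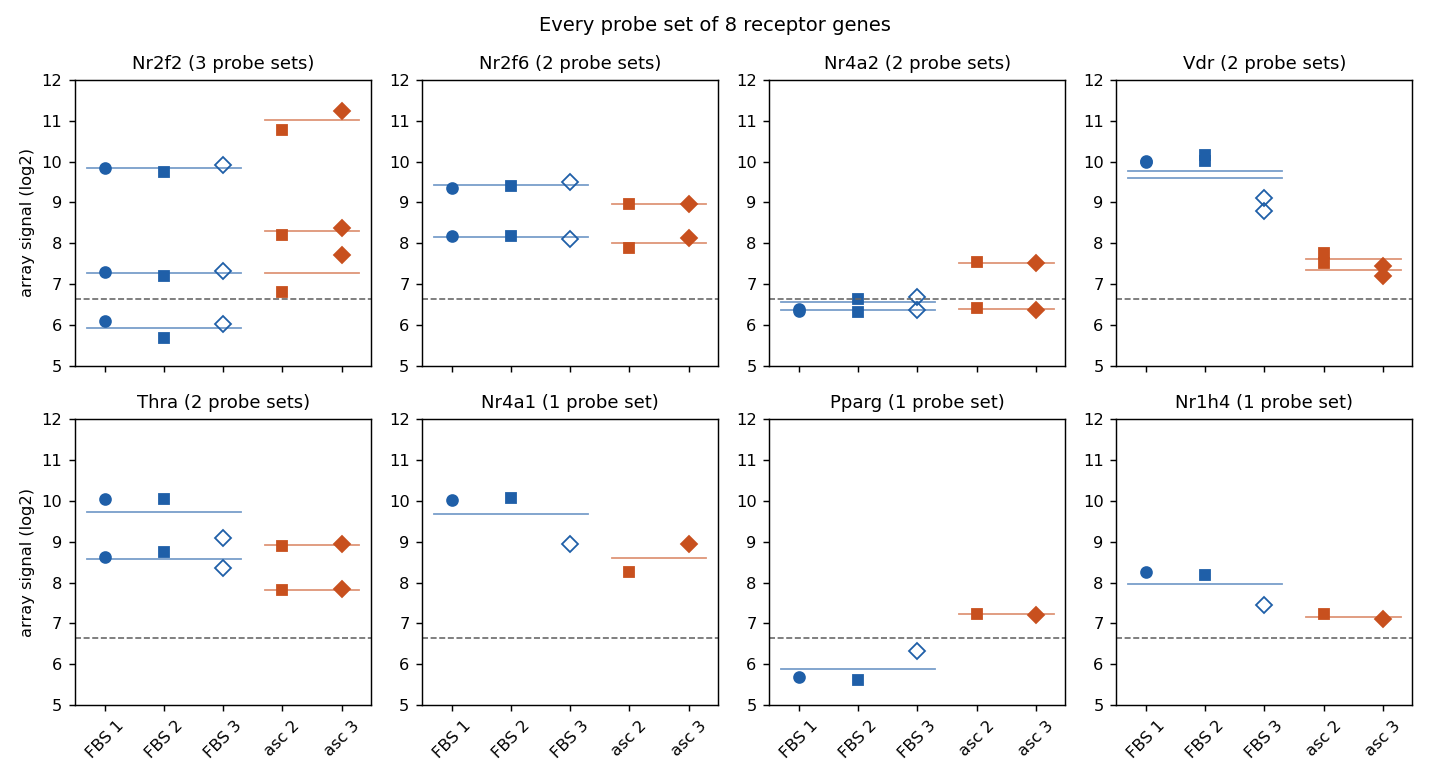
Log2 signal (y axis) of every probe set of 8 receptor genes on each array (x axis, FBS replicates 1 to 3 and ascites replicates 2 and 3), with a line at each group's mean and a dashed line at the dim reference in FBS (6.64). All 3 probe sets of Nr2f2 and both of Vdr and Thra separate the groups, whereas 1 of 2 does for Nr2f6 and Nr4a2, and FBS replicate 3 (open diamond) lies between the other FBS arrays and the ascites arrays for Vdr, Thra, Pparg and Nr1h4.

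The promoters of the 3 receptors that passed, and of Vdr, whose signal differed most among the receptors, are shown to give the sequence just upstream of each start. They are the 250 bases before the annotated start, 5′ to 3′ in the direction of transcription, from RefSeq (GRCm38.p6), all on the minus strand. Capitals mark the GC box GGGCGG, a binding motif of SP family factors, found on either strand (as GGGCGG or CCGCCC), with overlapping matches joined. The windows are chr7:70366747-70366996 for Nr2f2, chr8:71381953-71382202 for Nr2f6, chr2:57124004-57124253 for Nr4a2 and chr15:97908297-97908546 for Vdr.
Nr2f2: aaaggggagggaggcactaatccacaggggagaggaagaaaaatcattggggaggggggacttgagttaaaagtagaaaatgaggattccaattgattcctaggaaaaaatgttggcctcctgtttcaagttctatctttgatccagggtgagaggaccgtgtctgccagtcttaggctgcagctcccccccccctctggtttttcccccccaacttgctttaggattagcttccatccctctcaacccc
Nr2f6: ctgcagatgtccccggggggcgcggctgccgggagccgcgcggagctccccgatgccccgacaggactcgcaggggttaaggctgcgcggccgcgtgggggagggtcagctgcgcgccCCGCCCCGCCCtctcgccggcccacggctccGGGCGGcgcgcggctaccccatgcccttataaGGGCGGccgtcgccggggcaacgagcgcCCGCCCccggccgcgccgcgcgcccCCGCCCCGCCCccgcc
Nr4a2: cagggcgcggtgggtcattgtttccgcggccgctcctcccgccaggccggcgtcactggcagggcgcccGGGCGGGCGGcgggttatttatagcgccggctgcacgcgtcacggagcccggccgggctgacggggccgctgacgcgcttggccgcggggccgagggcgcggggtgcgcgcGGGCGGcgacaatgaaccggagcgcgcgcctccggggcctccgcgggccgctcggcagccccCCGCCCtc
Vdr: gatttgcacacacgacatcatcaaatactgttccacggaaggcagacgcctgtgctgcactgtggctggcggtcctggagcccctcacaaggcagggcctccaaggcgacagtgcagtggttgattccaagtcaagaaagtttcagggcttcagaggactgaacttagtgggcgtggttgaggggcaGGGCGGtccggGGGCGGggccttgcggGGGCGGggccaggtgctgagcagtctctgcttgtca
The Nr2f6 window held 7 GC boxes, that of Nr4a2 4, that of Vdr 3 and that of Nr2f2 0, with a GC content of 82.4%, 80%, 61.2% and 50%. Promoter windows were found for 38 of the 41 receptors, 55 windows in all, of which 25 (45.5%) held a GC box, against 32.7% of all 32851 windows of this length. The core hexamer AGGTCA, to which many nuclear receptors bind, was in 11 receptor windows (20.0%), against 14.0% of all windows, searched on both strands. It was in 0 of the 4 windows shown. The cAMP response element TGACGTCA, searched likewise, was in 0 of the 55 windows, against 1.55% of all. These matches are descriptions of letters in these windows and no sites of binding.

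The receptors for hormones and vitamins that pair with RXR held the largest difference in the family. Vdr mediates the response to the active form of vitamin D. It read 10.02, 10.16 and 9.11 in FBS and 7.77 and 7.44 in ascites. The arrays did not overlap, but FBS replicate 3 lay 39.4% of the way from the other FBS arrays to the ascites mean. The difference of -2.16 (SE 0.37, 95% confidence interval -3.16 to -1.16) narrowly missed the threshold (adjusted p = 0.0548). The other probe set gave 9.98, 10.01 and 8.79 in FBS and 7.51 and 7.20 in ascites, a difference of -2.24 (SE 0.45). Without FBS replicate 3 the difference was -2.49 (adjusted p = 0.0104). It also passed with quantile normalization (adjusted p = 0.0400), with median centring (0.0270), without the dimmest 25% of genes (0.0382) and with array weights (0.00848), and the adjusted p over its other alternatives was 0.0517 to 0.267.

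Thra, which encodes thyroid hormone receptor alpha, read 10.04, 10.05 and 9.10 in FBS and 8.90 and 8.94 in ascites. FBS replicate 3 lay 84.0% of the way to the ascites mean, so for this probe set most of the difference (-0.81, SE 0.34, adjusted p = 0.253) rests on FBS replicates 1 and 2. Leaving out FBS replicate 3 gave -1.13 (adjusted p = 0.00737). The other probe set of Thra read 8.63, 8.74 and 8.35 in FBS and 7.81 and 7.84 in ascites. Its difference was -0.75 (SE 0.13, adjusted p = 0.0613 by limma over all probe sets). There FBS replicate 3 lay nearer to the other FBS arrays than to the ascites arrays. In the RefSeq annotation Thra overlaps Nr1d1, and the probe set of Nr1d1 differed by 0.11 (SE 0.23). Besides these, Nr4a2, Esrra, Rara, Thrb, Nr1h3, Nr1i3 and Nr2c2 overlap another gene there.

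Of the 6 receptors for retinoids (Rara, Rarb, Rarg, Rxra, Rxrb and Rxrg), 0 passed limma's test, and 1 (Rarb) had an unadjusted p under 0.05. Rarb, itself a target of retinoic acid, read 7.15, 7.18 and 7.05 in FBS and 7.82 and 7.42 in ascites. The arrays did not overlap, and the difference of 0.49 (SE 0.14, adjusted p = 0.127) did not pass. Rara and Rarg differed by 0.05 (95% confidence interval -0.24 to 0.33) and 0.08 (-0.09 to 0.26). Rxrb was at 10.00, 9.99 and 9.34 in FBS and 10.20 and 10.59 in ascites (difference 0.62, SE 0.27, adjusted p = 0.265), with FBS replicate 3 displaced away from the ascites arrays. Rxra, the common partner of the family, lay between 8.85 and 8.94 on all 5 arrays, and its interval of -0.14 to 0.16 bounds the difference.

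Among the sensors of lipids and bile acids, Pparg, the receptor that drives fat cell formation, read 5.70, 5.62 and 6.33 in FBS and 7.24 and 7.20 in ascites. Its FBS signals were under the dim reference and its ascites signals above it, with no overlap. The difference in signal of 1.34 (SE 0.25), not a measure of fold from such dim values, did not pass (adjusted p = 0.0619), and it did without FBS replicate 3 (1.56, adjusted p = 0.00737), which lay 42.9% of the way to the ascites mean. Over its alternatives the adjusted p was 0.00737 to 0.298, and 5 of 14 passed. Nr1h4, which encodes the bile acid receptor FXR, read 8.27, 8.18 and 7.44 in FBS and 7.22 and 7.11 in ascites (difference -0.80, SE 0.29, adjusted p = 0.198). FBS replicate 3 lay 74.1% of the way to the ascites mean, and without it the difference was -1.06 (adjusted p = 0.0109). Nr0b2, the repressor SHP, which lacks the DNA-binding domain and is a target of FXR in liver, read 10.30, 10.41 and 9.94 in FBS and 9.83 and 9.34 in ascites (difference -0.63, SE 0.22, adjusted p = 0.185). Ppara, Ppard, Nr1h3, Nr1i2, Nr1i3 and Hnf4a differed by -0.14 to 0.25, all at or under the reference.

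For several of these receptors FBS replicate 3 lay apart from the other FBS arrays. Among 12 receptors that differed by at least 0.4 on the log2 scale, FBS replicate 3 was displaced toward the ascites arrays in 8. In 5 of these (Thra, Nr4a1, Nr1h4, Nr0b2 and Pparg) it was displaced by at least 40% of the way. The differences of these 5 were larger in size without FBS replicate 3. The share of all genes displaced in this way was not computed. The marker levels of the ovarian surface and mesothelial list and of the fibroblast list, given above, were displaced in the same direction on that array. Their part in the receptor differences was not tested. For Nr2f2 and Nr4a2 the displacement was 11.1% and 18% of the way, and for Nr2f6 FBS replicate 3 lay on the far side from the ascites arrays.

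The glucocorticoid receptor gene Nr3c1, the broadly expressed receptor for cortisol and corticosterone, did not pass the test. It read 10.44, 10.44 and 10.34 in FBS and 10.39 and 10.31 in ascites (difference -0.06, 95% confidence interval -0.23 to 0.11). A second probe set differed by -0.01. Esrra, an orphan receptor that regulates mitochondrial genes, read 9.08, 8.94 and 8.93 in FBS and 9.32 and 9.27 in ascites. The arrays did not overlap, and the difference of 0.31 (SE 0.071, adjusted p = 0.0862) did not pass.

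The clock receptors did not pass. Nr1d2 (REV-ERB beta) read 11.07, 11.04 and 10.55 in FBS and 10.68 and 10.73 in ascites (difference -0.18, SE 0.19), and without FBS replicate 3 it fell by 0.35 (adjusted p = 0.0236). The other probe set of Nr1d2 was under the dim reference on all 5 arrays (4.36 to 4.44), with a difference of 0.007. Nr1d1 (REV-ERB alpha) spread from 7.31 to 8.03 over the FBS arrays, which enclosed both ascites values. Rora, an activator at the same DNA sites, was under the dim reference in both group means (5.90 and 6.46, difference 0.56, SE 0.24). Nr5a1, which encodes steroidogenic factor, read 9.32 to 9.80 in FBS and 9.80 and 10.01 in ascites (difference 0.27, SE 0.19, adjusted p = 0.471). Its other probe set was under the reference on all 5 arrays (4.51 to 4.70), so the probe sets disagree on whether the gene is expressed. Nr5a2 lay between 6.66 and 6.78, just above the reference, and its other 3 probe sets lay under it.

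Coregulators and the enzymes that supply or break down ligands did not pass. Of 15 coactivators measured from a list of 17, 0 rose and 0 fell, against 2.69% and 2.59% of all genes. An unadjusted p under 0.05 was found for 4 of them, against 24.3% of all genes, and the median difference was 0.22. The smallest p was that of the acetyltransferase gene Kat2b (12.23, 12.16 and 11.81 in FBS against 11.20 and 10.90, difference -1.02, SE 0.17, adjusted p = 0.0545). Of 11 corepressors from a list of 13, 0 passed, with 4 at an unadjusted p under 0.05 and a median of -0.09 (smallest p for Ctbp1, difference -0.27, adjusted p = 0.0781). Of 23 genes of ligand supply and breakdown from a list of 29, 0 passed, with 1 at an unadjusted p under 0.05 and a median of -0.03. That gene was Fabp5, a fatty acid carrier that delivers ligands to PPARs, at 10.80, 10.67 and 12.14 in FBS and 9.41 and 9.08 in ascites (difference -1.96, SE 0.52, adjusted p = 0.114). Without FBS replicate 3, Ppargc1b, Med1 and Prmt1 rose and Kat2b and Pnrc1 fell among the coactivators, 0 corepressors passed, and Dhrs3 and Fabp5 fell. In that setting 9.17% of all genes rose and 10.9% fell.

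Among the textbook target genes of the receptors, the coregulators and the ligand genes, 122 that are no receptors were measured, of which 12 rose, against 2.69% of all genes, and 1 fell, against 2.59%. These counts were 23 (18.9%, against 9.17% of all genes) and 14 (11.5%, against 10.9%) without FBS replicate 3. The lists were chosen with earlier results of these data known, so the counts do not test whether such genes changed more often than others. Whether any receptor had a part in the changes of its listed targets was not tested. Of 9 LXR targets, 2 rose and 1 fell, with a median difference of 0.02. Abca1, the cholesterol exporter, read 7.26, 7.16 and 6.43 in FBS and 10.00 and 9.35 in ascites, a 6.61-fold rise (log2 difference 2.73, SE 0.35, adjusted p = 0.0349). Its FBS mean (6.95) lay close above the dim reference (6.64) and FBS replicate 3 lay under it, so the size of the fold is uncertain. Abca1 had 3 probe sets, of which only the brightest is given. The phospholipid transfer protein gene Pltp rose 2.18-fold and the lysophospholipid acyltransferase gene Lpcat3 fell by 0.65 on the log2 scale. The receptor gene Nr1h3 itself differed by 0.04. Of 10 PPAR targets from a list of 13, 2 rose (Pdk4 by 1.69 and Angptl4 by 1.11 on the log2 scale) and 0 fell, with a median difference of 0.45. Pdk4, a brake on glucose oxidation, was also the only one of 10 ERR targets to pass (median 0.06). Without FBS replicate 3, Srebf1 and Scd1 fell among the LXR targets, Plin2 rose and Acadm fell among the PPAR targets, and Cycs and Idh3a rose among the ERR targets.

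Of 12 glucocorticoid receptor targets, 1 rose (the clock gene Per1, 2.25-fold, adjusted p = 0.0333) and 0 fell, with a median difference of 0.42. The genes Mt1, Mt2 and Errfi1 passed upward beside it when FBS replicate 3 was left out. Of 9 oestrogen receptor targets from a list of 10, 3 rose. They were Gata3 (2.44-fold), the cyclin D gene Ccnd1 (2.26-fold) and the trefoil factor gene Tff1 (1.88-fold). Tff1 did not pass without FBS replicate 3 (adjusted p = 0.0502), where Xbp1 and Cxcl12 fell. The signals of Esr1 and Esr2, with 1 probe set each, were under the dim reference in both groups. The part of these receptors in the changes of the listed targets was not tested. The median difference of the list was -0.02. Of 10 PXR and CAR targets from a list of 12, 3 rose (Gsta2, Cyp3a13 and Abcb1a). Their log2 signals differed by 5.44, 4.19 and 1.09, but all 3 were under the dim reference in FBS and Abcb1a was so in ascites too, so these are not sizes of a change in expression. The receptors Nr1i2 and Nr1i3 were under it in both groups, and their part in these rises was not tested. The median of this list was 0.11, and without FBS replicate 3 Gstm1 rose and Abcc3 fell.

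Of 6 vitamin D receptor targets from a list of 8, 0 passed, with S100g at an unadjusted p under 0.05 and a median of 0.01, and only the antimicrobial peptide gene Camp lay above the dim reference (7.12 and 7.16). The classical target Cyp24a1, which degrades vitamin D, read 5.61 in FBS and 5.55 in ascites, both under the reference. Of 7 retinoic acid receptor targets from a list of 11, 0 passed, and 2 had an unadjusted p under 0.05, against 24.3% of all genes. The median was 0.03, and Tgm2 had the smallest p (difference 0.99, SE 0.22, adjusted p = 0.0848). Of 14 clock genes from a list of 15, Per1 and the activator gene Arntl rose and 0 fell, with a median of 0.11. Arntl read 8.38, 8.19 and 8.47 in FBS and 9.43 and 9.25 in ascites (difference 0.99, SE 0.11, adjusted p = 0.0294). The output genes Dbp (difference -2.14, SE 0.38, adjusted p = 0.0575) and Per3 (-1.31, SE 0.36, adjusted p = 0.120) did not pass, and without FBS replicate 3 they did (adjusted p = 0.00981 and 0.0124), together with Cry1 and Nfil3 upward and Tef downward.

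**Figure D4:**
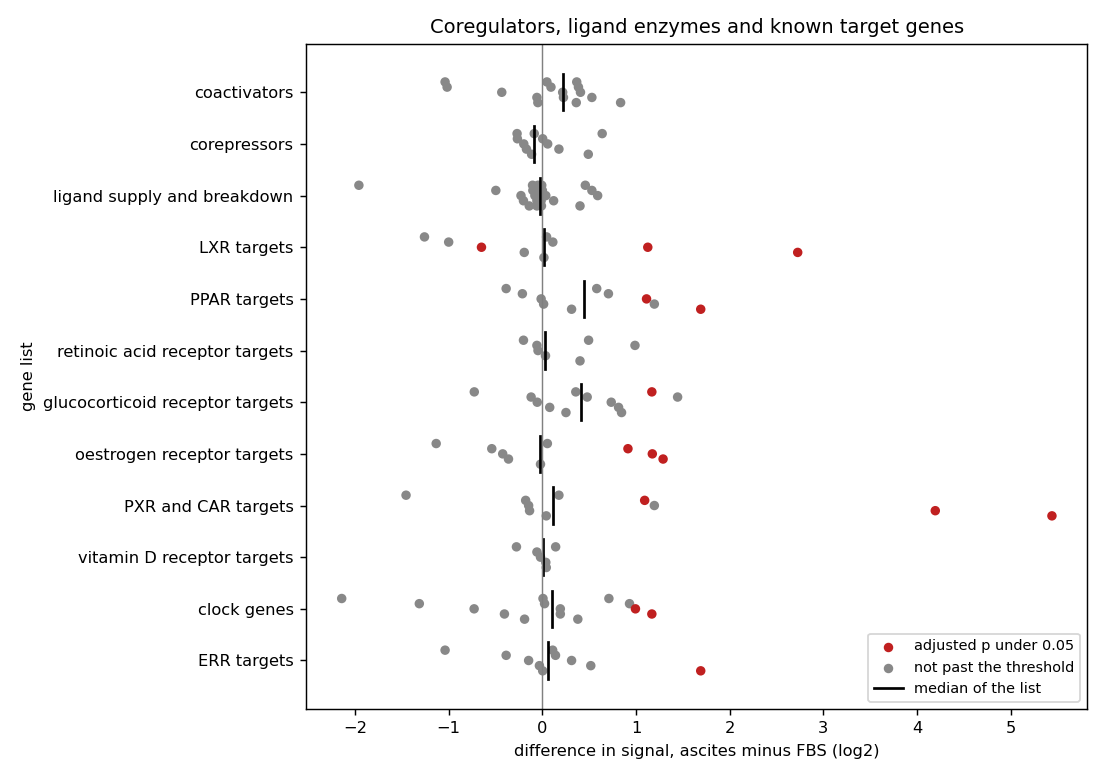
Difference in log2 signal, ascites minus FBS (x axis), of each measured gene in 12 lists (y axis), red where the adjusted p is under 0.05, with a black bar at the median of the list. Points in the coactivator, corepressor, ligand, retinoic acid receptor and vitamin D receptor lists are all grey, and the red points farthest right are Gsta2 (5.44) and Cyp3a13 (4.19), both under the dim reference in FBS.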

How the data were processed

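The deposited values are log2 signals, as judged from their range, 1 per probe set and array; per the submitters' processing notes, they were made with Affymetrix Expression Console, whose version and algorithm were not given in the sources used here. Array medians were 7.40 to 7.47, so no further normalization was applied. The values carry no detection call, and the number of arrays limits the precision.

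Of 22690 probe sets, 20393 were annotated to 1 gene, 691 to several and 1606 were unnamed (controls included). Of the named probe sets, 20364 matched RefSeq (GRCm38.p6) by Entrez identifier, with 0 symbols changed. The test was that of limma 3.58.1 (R 4.3.3), two-sided, by lmFit and eBayes without covariates or a filter on dim genes, with Benjamini-Hochberg adjustment over 12394 genes and a threshold of 0.05. Confidence intervals are not adjusted.

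The receptors and gene lists were chosen with earlier results of these data known. Every receptor is named; those past the threshold, or differing by at least 1 with no overlap between groups, were to get all values, and others (Thra, Nr1h4 and more) were added after their values were seen. Of each other list, up to 4 genes past the threshold, or the gene with the smallest p, are named, and further genes were chosen after their values were seen. Tested on simulated data, the fit of ascites against FBS over 12394 genes recovered 60% of 100 genes changed by 1 and 89% of 100 changed by 2 on the log2 scale, with 6 false calls. The simulated noise had the same size on every array and was drawn independently. It therefore lacked the distance of FBS replicate 3 from the other FBS arrays, and these rates need not hold for the real arrays. Alternatives were each array left out, FBS replicates 1 and 2 averaged, a replicate block, quantile normalization, median centring, a filter on dim genes, other uses of probe sets, a trended robust prior and array weights.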

Additional observations from a re-analysis of the deposited data

How the results depend on the processing

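The number of calls changed with the arrays used. Leaving out 1 array gave 0 to 2494 changed genes (654 with all arrays), 0 to 3 receptors higher and 0 to 5 lower in ascites, 11 to 15 receptors higher and 8 to 12 lower without overlap (20% to 29.9% and 20.6% to 30.9% of all genes), and 21 to 22 receptors above the dim reference in FBS and 23 to 25 in ascites; the mean of all probe sets gave 18 and 20 above it, and the 75th percentile of the reference 22 and 27. Where 1 ascites array remained, it was assumed to vary like the FBS arrays. With FBS replicates 1 and 2 averaged, 0 genes passed (2128 at an unadjusted p under 0.05), with 0 receptors higher and 0 lower (6 unadjusted). With the replicate number as a block, 0 genes passed (1892 unadjusted), with 0 receptors higher and 0 lower (8 unadjusted). Deviations of same-numbered arrays from their group means had correlations of 0.0305 and 0.043. These cannot decide whether the numbers pair the samples, because the 2 ascites arrays deviate by equal and opposite amounts. The main fit did not pair the arrays. With array weights, 2612 genes passed, with 3 receptors higher and 6 lower. Quantile normalization and leaving out the dimmest 25% of genes each gave 2 receptors lower, Nr2f6 and Vdr; median centring gave 1, Vdr in place of Nr2f6; the mean of all probe sets gave 0 lower and the trended, robust prior 0 lower, with Nr2f6 at adjusted p of 0.0657 and 0.0635. The cause of these shifts was not tested. The genes of the coregulator, ligand and target lists numbered 122, of which 12 rose and 1 fell, and 23 rose and 14 fell without FBS replicate 3; this setting and the left-out arrays for the dim reference were chosen after seeing the data. Of the 39 receptors, 29 passed under no setting tried, and in 0 receptors did a called difference reverse. The filter on dim genes removed 9 receptors, which have no value under it. The limits are the 2 and 3 arrays per group, the distance of FBS replicate 3 from the other FBS arrays, and an unknown background for the 16 receptors at or under the dim reference.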
